A study of Mus musculus with 18 samples.

Results

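The cytosolic ribosomal protein genes were taken as all symbols of the deposited mouse array table that begin with Rpl or Rps followed by a digit, together with Rplp0, Rplp1, Rplp2 and Rpsa, leaving out the Rps6k kinases. The table held 63 such genes among its 18118 gene symbols. The arrays were Illumina MouseRef-8 v2.0 beadchips, on which a probe's brightness reports the amount of an mRNA. The detection p-values of Rpl21, Rpl23, Rpl27a, Rpl37, Rpl4, Rps19 and Rps27a did not fall on the steps that a single probe gives, and whether their values combine several probes is unknown here. The 18 arrays form 6 groups of 3. Induced beta cells were collected 10, 30 or 60 days or 7 months after an adenovirus had been injected into the pancreas (its splenic lobe), and were sorted by their red Cherry fluorescence. Endogenous beta cells and acinar cells, the enzyme-secreting cells of the exocrine pancreas, are the reference cells. All groups came from Rag1-/- mice, which lack mature T and B cells. The labels do not name the genes carried by the virus, and they do not say whether the arrays within a group stem from different animals, so the p-values speak of the spread among these samples, part or all of which may be technical.

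A cytosolic ribosome joins a small subunit, which reads the mRNA, to a large subunit, which makes the peptide bond and passes the new chain out through a tunnel. Each ribosomal protein is normally needed in the same number as the others, and their mRNAs are among the most abundant of a cell. Many begin with a terminal oligopyrimidine (TOP) tract, a C followed by a run of C and T bases at the cap, through which growth signalling by mTOR and LARP1 sets how strongly these mRNAs are translated. Acinar cells are among the most active protein-making cells of the body, and beta cells make large amounts of a single secreted hormone.

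RefSeq's table of promoters (GRCm38.p6) held 49 of the members, matched by current symbol, of which 8 had more than 1 annotated start. A tract of a C followed by at least 4 bases that are each C or T, searched on the sense strand alone and starting within 10 bases of an annotated start, was found in 31 of these 49 members (63.3%) and in 34.9% of 17492 protein-coding genes. The 30 bases from 18 before to 12 after the annotated first base are shown for some members. These fell between day 30 and day 60 and are described with their values below. Other members that fell, among them Rpl10, Rpl3 and Rpl3l, are described without their sequence. The choice was made after the values had been seen, so the share of these windows with a tract is not read. Capitals mark the longest such tract that starts within 10 bases of the annotated start.
Rps3a1 (Rps3a in the table), chr3:86142657-86142686, minus strand: ttcttaaagccggaagggcgaaagagcaag
Rpl35a, chr16:33056464-33056493, plus strand: gcggcggggcttgCCTTCCTCTTTCCgcca
Rps3, chr7:99483698-99483727, minus strand: acacttgcaagggtcgccgcgctgcgcggc
Rpl39, chrX:37085211-37085240, minus strand: ccccctaagctccgcctctagcgaCTTCTT
Rpl5, chr5:107900510-107900539, plus strand: ctttctcacgtcgcttgcgtgctggtggtg
Rps27, chr3:90213637-90213666, minus strand: aggatttccgctttcgCTCCTTTCCggcgg
The window of Rpl35a, one of its several annotated starts, and that of Rps27 hold a tract across the start. That of Rpl39 holds a short one across the start, in lower case, and a longer one just after it that runs past the end of the window. In Rps3a1, Rps3 and Rpl5 none starts within that distance, although the window of Rpl5 opens with a pyrimidine run further upstream. A missing match says only that no such run starts within that distance.

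Of the 63 members, 56 passed the filter (detected with p under 0.01 on 3 or more arrays) and were tested, 31 of the large and 25 of the small subunit. Rpl14, Rpl17, Rpl6, Rplp2 and Rps23 were dim on nearly every array, with deposited signals of 43.9 to 88.9. Rpl4 and Rps27a were left out by the filter although their signals were well above the negative controls. Rpl4 had signals of 251 to 463, and Rps27a, which encodes a fusion of ubiquitin with a small subunit protein, had 374 to 1302. Between 5990 and 7745 genes were detected on an array, and the median signal ran from 56.8 to 81.6.

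The day 60 and 7-month arrays stood apart from the others. Arrays of the same replicate number in these 2 groups deviated together from their group means (r from 0.79 to 0.86 across genes), whereas in every other pair of groups the largest such correlation was 0.07. Same-numbered day 60 and 7-month arrays differed by an SD over genes of 0.16 to 0.18, which was less than the 0.38 to 0.47 between arrays within day 60 and the 0.37 to 0.47 within 7 months. The labels do not say what same-numbered arrays of these 2 groups share, and the likeness of the 7-month and day 60 values below cannot be told apart from it.

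The marker genes of acinar cells stayed bright in the induced cells. Their summed signal was 182555 to 189226 at day 10, 165786 to 174557 at day 30, 135238 to 139132 at day 60 and 135248 to 140096 at 7 months, against 3845 to 4616 in beta cells and 196504 to 203611 in acinar cells, with all 10 markers measured in every induced array. The 12 beta cell markers summed to 47994 to 92566 in the induced cells, 90162 to 93309 in beta cells and 720 to 770 in acinar cells, with 10 or 11, 11 and 2 or 3 of them measured. Markers of other islet cells had their highest summed signal in the beta arrays. They summed to 50549 to 51603 there, 19598 to 33071 in the induced cells and 2741 to 3478 in acinar cells. Of 6 such markers, 4 or 5, 5 and 4 were measured. The sums rest on different genes. Gcg, Sst, Ppy and Pyy were brightest in the beta arrays. Ghrl was bright in the induced cells alone, with quantile-normalized mean log2 levels of 13.78, 14.19, 13.81 and 13.82 from day 10 to 7 months. It had 4.96 in beta cells and 4.79 in acinar cells. All comparisons with beta cells below rest on beta arrays that hold transcripts of Gcg, Sst, Ppy and Pyy. In bulk samples such as these, fewer cells of a type and less RNA per cell cannot be told apart.

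Ribosomal protein genes held a larger part of the signal in acinar cells than in any other group. On each array the 63 members took 8.70% to 8.86% of the summed signal at day 10, 6.76% to 6.86% at day 30, 6.02% to 6.47% at day 60, 6.20% to 6.55% at 7 months, 6.07% to 6.26% in beta cells and 11.6% to 11.7% in acinar cells. The day 10 arrays lay between the acinar arrays and all others, without overlap, and the day 60, 7-month and beta ranges overlapped. These shares need no scaling between arrays, but they include background signal. The 50 brightest genes of an array also held more of the signal in acinar cells, 25.3% to 27.8%. They held 15.3% to 15.5% at day 10, 12.5% to 15.2% at the later induced times and 10.1% to 10.7% in beta cells. Members made up 8 or 9 of these 50 genes in acinar cells, 10 at day 10 and 14 or 15 in beta cells. Whether the members' shares differ from those of other bright genes was not tested.

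The direction and the size of the differences of many single members depended on how arrays were scaled to each other. Acinar arrays had the lowest median signal and the brightest top genes. Differences below are on the log2 scale after quantile normalization, with their standard error (SE) and limma's Benjamini-Hochberg adjusted p over 8942 genes, from 3 arrays in each group. A gene is said to be called at an adjusted p under 0.05. Sizes and ranks of differences are those after quantile normalization unless another scaling is named. The model was also fitted to median-scaled values and to the unscaled values of the series matrix, and "rose", "fell", "higher" and "lower" are used of a gene where all 3 scalings called it in that direction. That stricter rule was adopted after the data had been seen. The median of all genes in beta minus acinar was itself 0.06 with quantile normalization, -0.22 with median scaling and 1.06 in the series matrix. Relative to it, the members' median was -0.37, -1.61 and -1.28 in the same order.

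**Figure D1:**
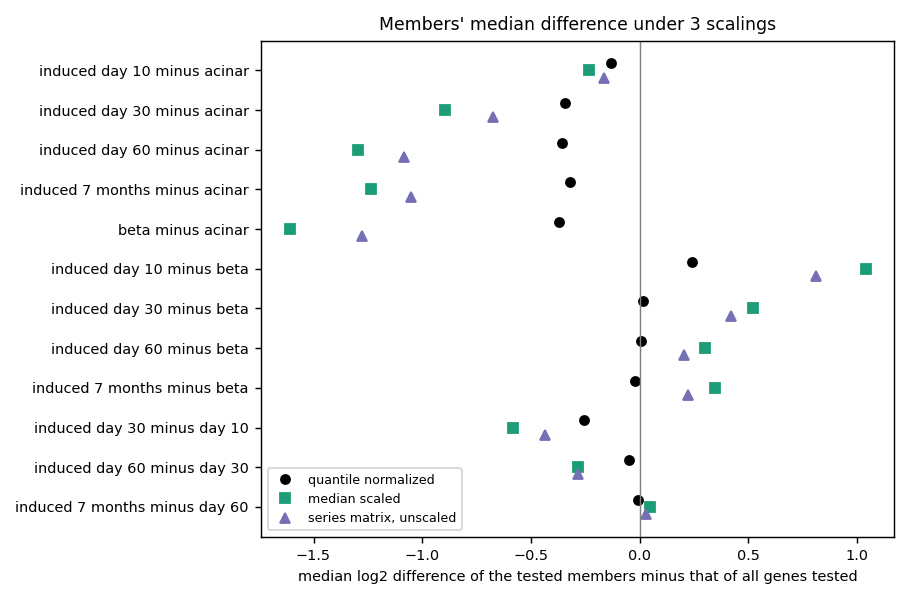
Median log2 difference of the 56 tested members minus the median of all genes tested (horizontal axis), for each comparison (rows), after quantile normalization (circles), median scaling (squares) and in the unscaled series matrix (triangles). All 3 scalings put the members below all genes in beta minus acinar (-0.37, -1.61 and -1.28) and above them in day 10 minus beta (0.24, 1.04 and 0.81).

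In induced cells at day 10, ribosomal protein genes stood above beta cells. After quantile normalization 29 of the 56 members were called higher and 13 lower, where 38% and 42% of all genes were. Under all 3 scalings 27 members were higher and none lower, where 26.1% and 34.6% of all genes were; the 13 lower calls of quantile normalization did not hold. Besides Rpl3l, which is described below, Rpl29 and Rpl22 (1.45 ± 0.06) were among the highest. Rpl29, a large subunit protein that also binds heparin, had signals of 6464, 6356 and 6368 at day 10, against 1721, 1751 and 2004 in beta cells. Its difference was 1.89 ± 0.07 (SE, adjusted p = 1.3e-12), and the groups were far apart. Rpl30 (1.30 ± 0.07), Rpl13a (1.28 ± 0.07), Rps16 (1.06 ± 0.08) and Rps3a (1.03 ± 0.14) were higher as well. Among the members with the lowest differences, Rpl36al (-0.89 ± 0.06) turned positive after median scaling, and Rpl5 (-0.69 ± 0.06) turned positive in both other scalings.

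Against acinar cells, the balance of calls at day 10 differed between scalings. Median scaling called 10 members higher and 39 lower, and the series matrix values 38 higher and 5 lower. Quantile normalization called 14 members higher and 26 lower, where 40.2% and 39.6% of all genes were. Of these, 7 higher and 5 lower calls held under all 3 scalings, where 33.6% and 12.1% of all genes were. Rpl3l, Rpl18, Rpl27, Rpl22, Rps16, Rpl7a and Rpl24 were the higher ones, and Rpl36a, Rps24, Rps27l, Rpl12 and Rplp1 the lower ones. Rpl18 had signals of 17826, 19173 and 17353 at day 10, against 5264, 4953 and 5567 in acinar cells, a difference of 0.86 ± 0.06 (adjusted p = 5.0e-09). Rps24 had 8884, 8197 and 8712 at day 10, against 10438, 10154 and 11479 in acinar cells, a difference of -0.86 ± 0.09 (adjusted p = 2.7e-07). Neither pair of groups overlapped. Rps3a, among the 3 lowest after quantile normalization (-0.89 ± 0.14), was positive in the series matrix.

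Beta cells were below acinar cells. Quantile normalization called 17 members higher and 32 lower in beta cells, where 42.1% and 37.3% of all genes were, and under all 3 scalings none was higher and 23 were lower, where 32.6% and 10.2% of all genes were. Rps3a (-1.92 ± 0.14), Rpl13a (-1.92 ± 0.07), Rpl29 (-1.84 ± 0.07) and Rpl30 (-1.84 ± 0.07) were the lowest of these 23. Rpl13a had signals of 888, 921 and 939 in beta cells and 1062, 1038 and 1215 in acinar cells. That gap is far smaller than its difference after quantile normalization, so its size and rank rest on that scaling. Rpl36al and Rps2 were among the highest after quantile normalization (0.96 and 0.77) but turned negative after median scaling. Rpl27a, with the lowest difference (-1.96 ± 0.10), was not called in the series matrix. Markers of other cells differed between these groups. Red blood cell markers summed to 265 to 282 in beta cells and 11400 to 14023 in acinar cells, with 0 and 3 of 5 measured. Mesenchymal markers summed to 461 to 485 in beta cells and 1970 to 2485 in acinar cells, with 0 to 1 and 8 of 9 measured, and endothelial markers to 288 to 307 and 703 to 855, with 0 and 3 to 4 of 5 measured. Markers of other islet cells, given above, went the other way, and so did the sum of the duct markers. The duct markers summed to 12064 to 12894 in beta cells and 3132 to 4000 in acinar cells, with 3 and 4 of 4 measured. Single duct markers went both ways in mean log2 level after quantile normalization. Spp1 (12.97 and 11.64) and Krt7 (12.03 and 6.97) were brighter in beta than in acinar cells. Sox9 (4.45 and 7.81) and Muc1 (5.57 and 11.81) were dimmer there. The part of any of these lists in the differences was not tested.

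Between day 10 and day 30 many members fell and none rose. Quantile normalization called 32 of the 56 lower, where 30% of all genes were, and none higher, where 31.1% of all genes were; none was higher at an unadjusted p under 0.05 either. The lower call held under all 3 scalings for 26, where 9.77% of all genes were. In quantile-normalized data 21 of 31 large subunit members and 11 of 25 small subunit members were called lower, with medians of -0.29 and -0.16, where the median of all genes was 0.01. Rpl13a, known in human monocytes for silencing inflammatory mRNAs once released from the ribosome, had signals of 1296, 1290 and 1231 at day 30, against 1686, 1746 and 1726 at day 10. It fell by 0.77 ± 0.07 (adjusted p = 1.7e-07), and the groups did not overlap. Rpl29 (-0.74 ± 0.07), Rps19 (-0.73 ± 0.07) and Rps10 (-0.71 ± 0.06) fell also. A list of 8 immediate early and heat shock genes, which respond to cell handling, also moved over the same interval. Its summed signal was 53626 to 54906 at day 30, against 17865 to 18916 at day 10, with all 8 genes measured in both groups. Markers of other cells moved too. Mesenchymal markers summed to 2027 to 2246 at day 30, against 683 to 690 at day 10, with 6 to 7 and 3 to 4 of 9 measured. Macrophage markers summed to 1351 to 1434 at day 30, against 2699 to 2736 at day 10, with 6 of 7 measured in both. Beta cell markers summed to 83447 to 85968 at day 30, against 47994 to 48933 at day 10, and duct markers to 9781 to 10018, against 6525 to 6902. Of the duct markers only Spp1 went up in mean log2 level after quantile normalization, from 10.65 at day 10 to 12.25 at day 30. Muc1 (11.54 to 10.34) and Krt7 (10.21 to 9.88) went down, and Sox9 hardly moved (6.48 to 6.46). The part of any of these lists in the falls of the members was not tested.

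At day 30 members differed from both beta and acinar cells. Against beta cells 20 members were called higher and 20 lower, where 34.5% and 39.9% of all genes were. Under all 3 scalings 20 were higher and 1 was lower, where 31.9% and 34.1% of all genes were, so that the share of members that were higher was near that of all genes. Rpl29 (1.15 ± 0.07), Rpl22 (1.13 ± 0.06), Rpl27a (1.10 ± 0.10) and Rps3a (1.08 ± 0.14) followed Rpl3l among the higher ones. Rpl36al (-0.83 ± 0.06) and Rpl23 (-0.79 ± 0.06) were among the lowest, but Rpl36al turned positive after median scaling and Rpl23 was not called there. Against acinar cells 11 were called higher and 35 lower, where 39.6% and 39.7% of all genes were, and 2 were higher and 8 lower under all 3 scalings, where 31.2% and 5.54% of all genes were. Rpl36a (-1.09 ± 0.09) and Rps26 (-1.07 ± 0.10) were the lowest of the 8, while Rpl13a (-1.41), Rpl19 (-1.19) and Rpl30 (-1.10) turned positive in the series matrix. Rpl18 and Rpl10 had differences of 0.38 ± 0.06 and 0.31 ± 0.05 that did not hold under median scaling.

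Between day 30 and day 60 a few members fell steeply. Quantile normalization called 8 members higher and 17 lower, where 30.2% and 31.6% of all genes were. Under all 3 scalings none was higher and 17 were lower, where 20.1% and 31% of all genes were, so that the share of members that fell (17 of 56) was near that of all genes. The size of the fall set a few of them apart from the members' median of -0.05, and these are the extremes of the 56. How many of all genes fell as far is not given here, so falls of this size are not read as particular to ribosomal protein genes. Rps3a, a small subunit protein, had signals of 639, 726 and 685 at day 60, against 3382, 3068 and 3311 at day 30. Its difference was -1.97 ± 0.14 (3.93-fold, adjusted p = 1.2e-08) and ran from -2.07 to -1.91 with single arrays left out. Every day 60 and 7-month array was below every array of the other 4 groups.

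Rpl35a, a large subunit protein mutated in some patients with the anaemia named after Diamond and Blackfan, behaved likewise. Its signals were 3207, 3185 and 3123 at day 60, against 11856, 10856 and 11310 at day 30, a difference of -1.35 ± 0.08 (adjusted p = 3.0e-09). Rps3, at the site where mRNA enters the small subunit and also a DNA repair enzyme, had 2859, 2662 and 2500 at day 60 and 7877, 7866 and 8905 at day 30, a difference of -1.15 ± 0.10 (adjusted p = 8.9e-08). In neither gene did the groups overlap. Rpl39 (-0.60 ± 0.07), a small protein lining the exit tunnel, and Rpl5 (-0.57 ± 0.06), which carries the 5S ribosomal RNA into the large subunit and binds Mdm2, fell less. The 3 highest differences, those of Rps27l (0.61 ± 0.10), Rpl23 (0.46 ± 0.06) and Rpl38 (0.41 ± 0.06), turned negative in the series matrix.

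**Figure D2:**
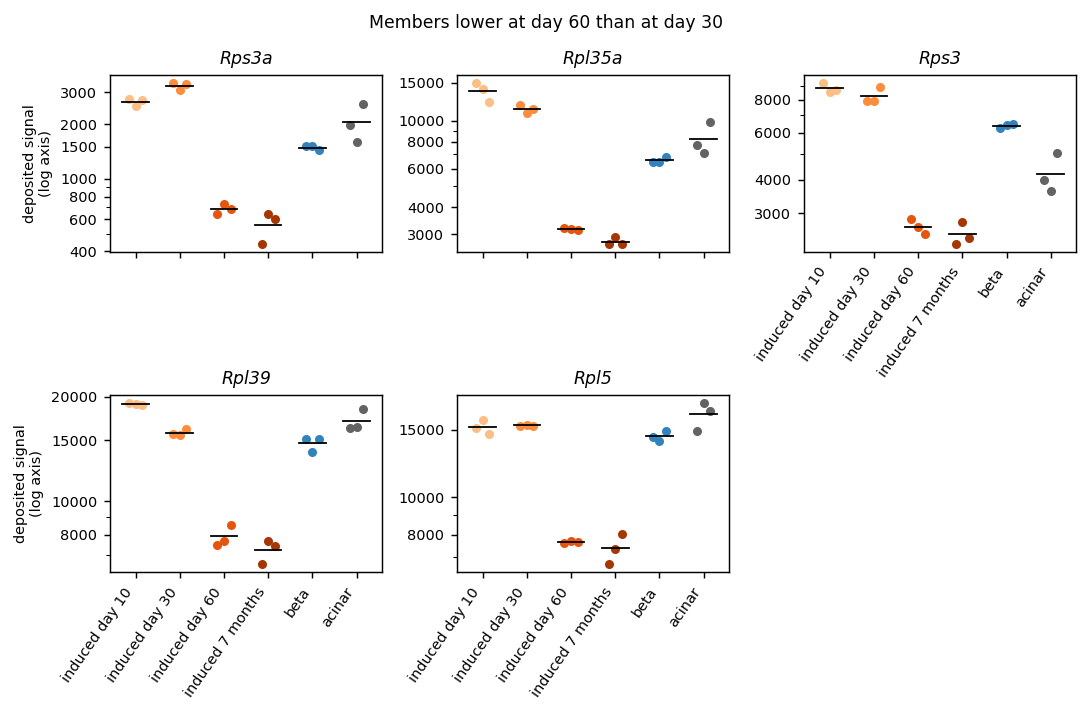
Deposited signal (log axis) of Rps3a, Rpl35a, Rps3, Rpl39 and Rpl5 on each of the 3 arrays of each group (points), with the group mean (bar), before any scaling. In all 5 panels the day 60 and 7-month points lie below every other group; for Rps3a they are 439 to 726, against 1436 to 3382 elsewhere.

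The falls of Rps3a, Rpl35a and Rps3 were also seen within arrays, where no scaling factor enters. Relative to the median of the 56 tested members on the same array, background-corrected Rps3a had a median log2 value of -2.21 at day 10, -1.65 at day 30, -3.54 at day 60, -3.69 at 7 months, -2.38 in beta cells and -2.08 in acinar cells. Only the change between groups is read from such a value, not its level. For Rpl35a the medians were 0.18, 0.15, -1.28 and -1.32 from day 10 to 7 months, -0.25 in beta cells and -0.10 in acinar cells. For Rps3 they were -0.46, -0.41, -1.55 and -1.55 from day 10 to 7 months, -0.26 in beta cells and -1.06 in acinar cells. In all 3 genes the day 60 and 7-month arrays did not overlap those of any other group. These within-array values were added after the data had been seen and were not tested, since 3 arrays against 3 cannot give an exact permutation p under 0.1.

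Markers of other cells also moved over this interval. The summed signal of 9 mesenchymal markers was 3908 to 8598 at day 60, against 2027 to 2246 at day 30, with 7 to 9 and 6 to 7 of them measured. That of 5 red blood cell markers was 1275 to 8202 at day 60, against 605 to 655 at day 30. Macrophage markers summed to 1449 to 3274 at day 60, against 1351 to 1434 at day 30, and endothelial markers to 568 to 807, against 362 to 409. Duct markers summed to 3723 to 7934 at day 60, against 9781 to 10018 at day 30. Those of other islet cells summed to 20302 to 29176, against 31395 to 33071, but the genes of this list moved apart. After quantile normalization the mean log2 levels of Ghrl (14.19 to 13.81) and Sst (10.85 to 10.33) went down from day 30 to day 60. Those of Gcg (11.26 to 12.85), Ppy (6.34 to 7.53) and Pyy (11.82 to 11.98) went up. The immediate early and heat shock list summed to 60189 to 68341 at day 60, against 53626 to 54906 at day 30. The part of any of these lists in the results was not tested.

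Against beta cells the day 60 arrays split both ways. Quantile normalization called 18 members higher and 27 lower, where 34.6% and 43.1% of all genes were, and 10 were higher and 11 lower under all 3 scalings, where 26.9% and 40.3% of all genes were. Rpl5 (-1.24 ± 0.06), Rpl39 (-1.23 ± 0.07), Rps3 (-1.17 ± 0.10), Rpl35a (-0.97 ± 0.08) and Rps3a (-0.89 ± 0.14) were among the 11. Rpl22 (1.23 ± 0.06), Rps27l (1.22 ± 0.10), Rpl27a (0.93 ± 0.10) and Rpl23a (0.89 ± 0.08) followed Rpl3l among the 10. Against acinar cells 8 members were called higher and 39 lower, where 37.6% and 39.4% of all genes were. Rpl3l and Rpl22 were higher and 28 members lower under all 3 scalings, where 28.5% and 6.31% of all genes were. Rps3a (-2.82 ± 0.14) and Rpl13a (-1.78 ± 0.07) were among the lowest. Rpl27 was called higher (0.50 ± 0.06) but turned negative after median scaling.

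At 7 months no member was called different from day 60. None of the 56 members and none of all 8942 genes (0%) was called by limma, under any of the 3 scalings. At an unadjusted p under 0.05 there were no members and 209 genes after quantile normalization, 3 members and 323 genes with median scaling, and 4 members and 786 genes in the matrix values. With the day 60 and 7-month arrays paired by number there were 1 member and 610 genes at that p, and still none was called, with a lowest adjusted p among members of 0.68 (Rpl23, 0.11 ± 0.05). The widest member difference was 0.25 in size. Against beta cells 18 were called higher and 26 lower, where 34.7% and 43.1% of all genes were, and under all 3 scalings 8 were higher and 9 lower, where 24.2% and 39.8% were. Against acinar cells 6 were called higher and 38 lower, where 37.8% and 39.9% of all genes were, and 2 were higher and 33 lower under all 3 scalings, where 28.4% and 7.98% were. Rps3a (-3.00 ± 0.14) and Rpl35a (-1.75 ± 0.08) were among the lowest against acinar cells, and Rpl39 (-1.26 ± 0.07), Rpl5 (-1.18 ± 0.06) and Rps3 (-1.13 ± 0.10) against beta cells. Rpl27 again had a difference from acinar cells (0.49 ± 0.06) that turned negative after median scaling.

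**Figure D3:**
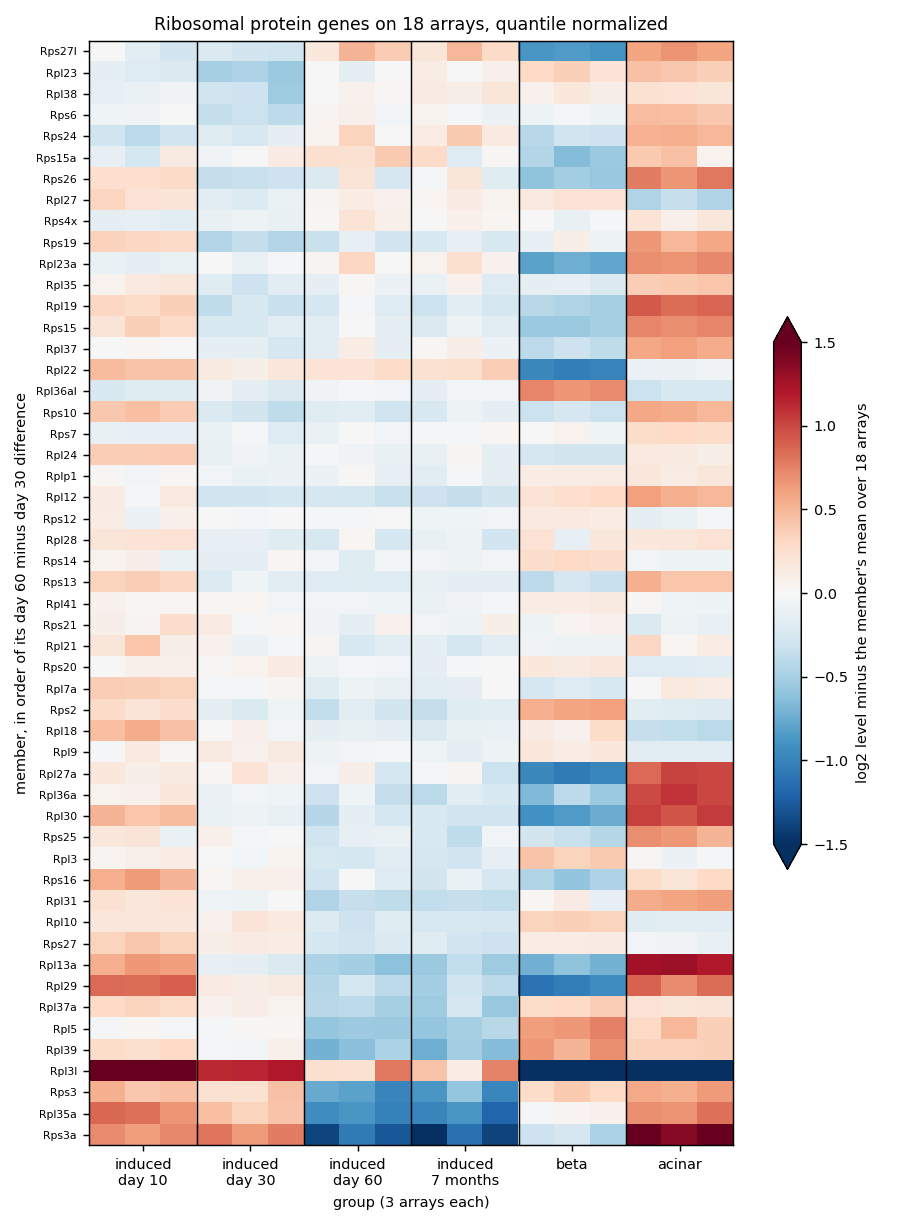
Quantile-normalized log2 level of 52 of the 56 tested members (rows, from the highest to the lowest day 60 minus day 30 difference) on each of the 18 arrays (columns, 3 per group), minus the member's mean over all arrays, with colours capped at 1.5 either way. Rps3a, Rpl35a and Rps3 at the bottom are low in the 6 day 60 and 7-month columns, and Rpl3l is high only in the induced columns.

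An F-test over the 4 induced times called 43 of the 56 members, where 83.9% of all genes were called. Among the 13 that it did not call were Rpl27a, Rpl36al, Rpl37, Rpl41, Rplp1, Rps12, Rps14 and Rps7. Rps7 had an adjusted p of 0.23.

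On the catalytic side of the large subunit, Rpl3 reaches towards the peptidyl transferase centre and Rpl10 helps to close it during maturation. At day 60 against day 30, Rpl3 had a log2 difference of -0.22 and Rpl10 one of -0.36, and both calls held under all 3 scalings.

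Rpl3l, the form of Rpl3 found mainly in skeletal muscle and heart, was above background in induced cells alone. Its signals were 528, 547 and 527 at day 10, 360, 370 and 384 at day 30, 203, 194 and 278 at day 60, 198, 176 and 256 at 7 months, 46.7, 50.8 and 44.4 in beta cells and 62.1, 57.4 and 65.3 in acinar cells. All induced arrays were above all others, and the day 10 and day 30 arrays overlapped no other group. No beta or acinar array measured it, so it entered the tests through its induced arrays alone, and its differences from these cells, which are among the counts above, are given as a description. A fold is a lower bound, taken against the lowest signal detected on each array. Rpl3l was at least 15.1-fold higher at day 10, 7.36-fold at day 30, 4.43-fold at day 60 and 4.46-fold at 7 months than in beta cells. Against acinar cells the bounds were 9.91-fold, 4.83-fold, 2.90-fold and 2.92-fold. It fell by 1.04 ± 0.15 between day 10 and day 30 and by 0.73 ± 0.15 between day 30 and day 60. Whether its probe also takes up other transcripts was not tested, and probe sequences were not used here.

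Rpl36al, a near copy of Rpl36a, was bright in every group. Near-identical copies can share a probe's signal, so the values of paralogs are uncertain to that extent. Rpl36al had signals of 13765 to 14189 at day 10, 14466 to 15547 at day 30, 10915 to 11190 at day 60 and 9636 to 10924 at 7 months, against 14667 to 15575 in beta cells and 7880 to 9488 in acinar cells. Its partner Rpl36a had 3209 to 4472 at day 60 and 7 months, against 3721 to 4368 in beta cells and 7486 to 8535 in acinar cells. The within-array log2 difference of Rpl36al and Rpl36a was 1.03 to 1.10 at day 10, 1.14 to 1.26 at day 30, 1.33 to 1.52 at day 60, 1.46 to 1.60 at 7 months, 1.76 to 2.08 in beta cells and 0.07 to 0.15 in acinar cells. All induced arrays thus lay between the acinar and the beta arrays, and the later ones nearer to beta cells.

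Rps27l, a relative of Rps27 that p53 induces, went the other way. Its signals were 9613 to 11977 at day 10, 10295 to 11026 at day 30, 9579 to 11659 at day 60 and 8801 to 11402 at 7 months, against 5497 to 5661 in beta cells and 13490 to 15202 in acinar cells. Its difference from beta cells was 0.72, 0.61, 1.22 and 1.20 at the 4 times. Within arrays, the log2 difference of Rps27l and Rps27 was -1.01 to -0.80 at day 10, -0.74 to -0.58 at day 30, -0.05 to 0.32 at day 60, -0.12 to 0.38 at 7 months, -1.09 to -1.08 in beta cells and 0.26 to 0.33 in acinar cells. The day 10 arrays were close to the beta arrays, and the day 60 and 7-month ranges reached the acinar range. Rps27, which carries the tract shown above, had signals of 19311 to 21151 at day 10, 16488 to 17794 at day 30 and 8793 to 10018 at day 60 and 7 months, against 11545 to 12015 in beta cells and 11294 to 12080 in acinar cells.

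**Figure D4:**
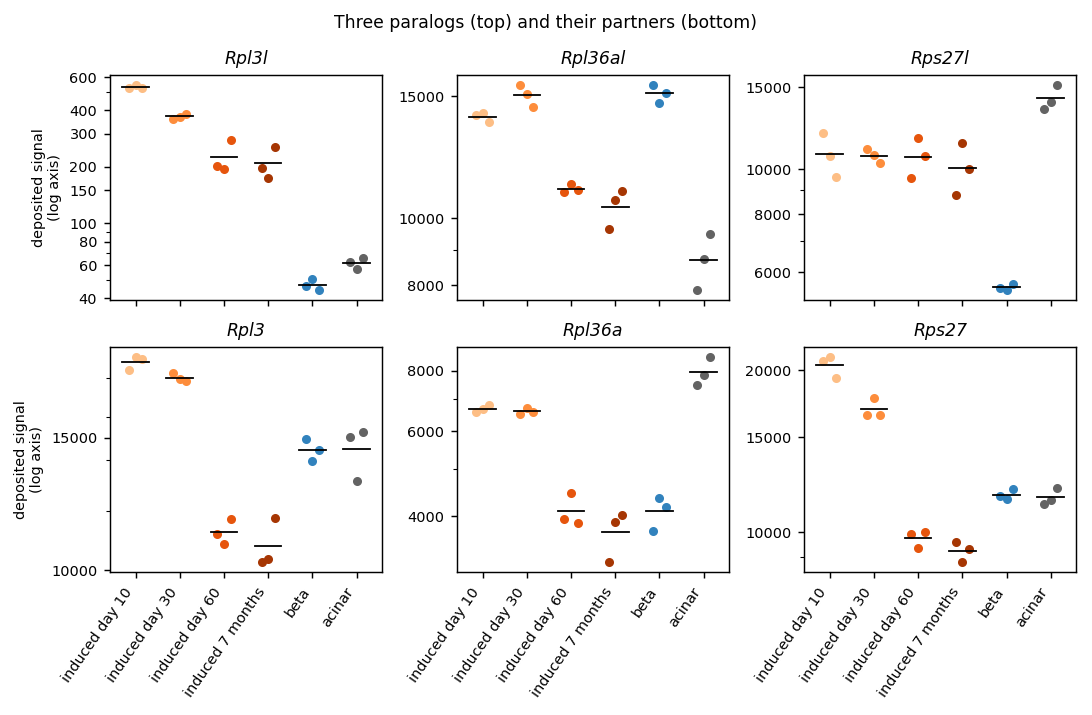
Deposited signal (log axis) of Rpl3l, Rpl36al and Rps27l (top) and of their partners Rpl3, Rpl36a and Rps27 (bottom) on each of the 3 arrays of each group (points), with the group mean (bar), before any scaling. Rpl3l is between 176 and 547 on the induced arrays, against 44.4 to 65.3 on the beta and acinar arrays.

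At the tunnel and its exit, where new chains leave the large subunit, members moved in different ways. Rpl22, which also acts in lymphocyte development and is not essential for translation in mice, was higher than in both reference cells at all 4 times under all 3 scalings. It had signals of 1521, 1439 and 1413 at day 10, 1465, 1424 and 1520 at day 30, 1221, 1154 and 1300 at day 60 and 1062, 1072 and 1301 at 7 months, against 737, 682 and 754 in beta cells and 396, 377 and 479 in acinar cells. Its difference from beta cells lay between 1.13 and 1.45, and that from acinar cells between 0.21 and 0.52. Relative to the members' median on the same array its induced range was -3.15 to -2.51, above -3.57 to -3.40 in beta cells and -4.56 to -4.41 in acinar cells. Rpl23a, which docks signal recognition particle at the exit, was higher than in beta cells at all 4 times (0.66, 0.73, 0.89 and 0.90). Rpl31 was lower at day 60 than in beta cells (-0.40) and acinar cells (-0.98), and Rpl35 and Rpl19 had no difference from beta cells at day 60 that all 3 scalings called.

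The stalk, which recruits elongation factors, is covered by Rplp1 and Rpl12 among tested members. Both were lower than in acinar cells at all 4 times, with differences for Rplp1 of -0.15, -0.23, -0.21 and -0.26 and for Rpl12 of -0.47, -0.83, -0.84 and -0.86. Rplp1 had the highest signal of any gene on 2 acinar arrays.

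On the small subunit, Rps2, next to Rps3 at the mRNA entry, was lower than in beta cells at day 60 (-0.85 ± 0.07) and 7 months (-0.82 ± 0.07). Rps15, at the decoding site, was higher at day 10 (0.82) and day 30 (0.32) than in beta cells. On the exit side, Rps26 was higher than in beta cells at day 10 (0.83), day 60 (0.48) and 7 months (0.56), while Rps14 had no difference from beta or acinar cells that held in all 3 scalings. Rps6, whose protein is the classic target of the S6 kinases, was lower than in acinar cells at day 30 (-0.80), day 60 (-0.41) and 7 months (-0.46).

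Of the genes mutated in the anaemia of Diamond and Blackfan, 9 were tested. At day 10, 4 were higher and none lower than in beta cells under all 3 scalings, where 26.1% and 34.6% of all genes were. At day 60, 2 were higher and 2 lower, where 26.9% and 40.3% of all genes were. Rpl35a and Rpl5 were the lower ones at day 60, and Rps24 and Rps26 the higher ones. Between day 10 and day 30, 5 of the 9 fell and none rose, where 9.77% and 25.3% of all genes did.

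Other genes of the translation machinery are given for comparison, and whether the lists differ from the ribosomal protein genes was not tested. Under all 3 scalings 26.1% of all genes were higher and 34.6% lower at day 10 than in beta cells, 25.3% rose and 9.77% fell between day 10 and day 30, and 20.1% rose and 31% fell between day 30 and day 60. Of 21 tested ribosome biogenesis factors, which assemble the subunits in the nucleolus, 1 was higher and 16 lower at day 10 than in beta cells under all 3 scalings, where 27 of 56 ribosomal protein genes were higher and none lower. Gnl3 (-2.44 ± 0.09) and Tcof1 (-2.09 ± 0.16) were the lowest of them, and Bop1 (1.22 ± 0.10) was the higher one. Between day 10 and day 30, 10 biogenesis factors rose and 3 fell, Wdr75 by 1.06 ± 0.09 and Npm1 by 0.98 ± 0.13 among those that rose. Of 12 other mRNAs known to carry a TOP tract, 5 were higher and 2 lower at day 10 than in beta cells, with Eef2 (1.62 ± 0.09) the highest and Pabpc1 (-2.11 ± 0.09) the lowest. Between day 10 and day 30, 3 of these rose and 5 fell.

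Of 13 translation initiation factors, 2 were higher and 8 lower at day 10 than in beta cells, and 6 rose and none fell between day 10 and day 30. Of 15 genes of mTOR and growth signalling, 2 were higher and 6 lower at day 10 than in beta cells, the lower count being near the share of all genes. Of 3 tested genes of RNA polymerase I transcription, all fell between day 30 and day 60. Of 64 mitochondrial ribosomal protein genes, 16 were higher and 8 lower at day 10 than in beta cells. Between day 30 and day 60, 5 of these 64 rose and 35 fell, where none of the 56 cytosolic genes rose and 17 fell.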

How the data were processed

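Per the file headers, the authors' table gives every gene symbol, array by array, an intensity (its signal, not normalized) and the p-value of its detection. A series matrix, also deposited, has log10 values of those signals, to within 5.52e-10. How probes were summarised per symbol is not given in the sources used here. Groups and replicate numbers came from the sample titles.

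With limma 3.58.1 in R 4.3.3, signals were background-corrected by normexp (negative controls inferred from detection p-values on a grid of 798 steps, offset 16), quantile normalized and taken to log2. Tested were the genes detected (p under 0.01) on 3 or more arrays. All 18 arrays entered 1 lmFit and eBayes model with 12 comparisons and an F-test, adjusted by Benjamini-Hochberg over all genes tested. Precision is limited by the number of arrays, 3 a group. In data simulated for day 60 minus day 30 (8942 genes, 200 changed), the model recovered 65% of the 1.5-fold and 93% of the 2-fold changes, with false calls making up 3.07% of its calls. The simulated noise was independent and had the same SD in all groups for a gene. It lacked the wider spread and shared deviations of the day 60 arrays, and 5523 genes were called in the real comparison. These rates may therefore not hold for the data.

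The members, the gene lists and the rule for named genes were chosen with earlier results of these data known. Named were, in each comparison, the 3 called members at either end, all members of the role and paralog lists, and in each pathway list the 2 tested genes with the largest called rise and fall. Some members are counted but not reported by name here. Where the text names fewer genes of a list, or other members, they were picked after the values had been seen. The inference of the negative controls was corrected after the first counts of calls had been seen, because a test on simulated data had failed. A member counts as measured in a group where its detection p-value is under 0.01 and its signal above the controls' mean, or its signal exceeds that mean by 3 SD; the latter was added after the values had been seen.

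Only the day 60 and 7-month groups were taken as paired by number, from their correlations (0.79 to 0.86 across genes). Alternatives comprised 24 planned settings, 18 of which left out 1 array each, and 4 chosen after seeing the data.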

Additional observations from a re-analysis of the deposited data

Results flagged for a closer look

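In 6 cases a member was called above a reference cell type at one induced time and below it at the next, with the change between the times called as well (quantile normalization, limma). Rps3a was above beta cells at day 30 (1.08) and below them at day 60 (-0.89), a change of -1.97. Rpl35a did the same (0.38 at day 30, -0.97 at day 60, a change of -1.35). In these genes both signs held under all 3 scalings.

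Rps19 was above beta cells at day 10 (0.36) and below them at day 30 (-0.37), a change of -0.73. Against acinar cells, Rpl24 changed by -0.46 between day 10 (0.25) and day 30 (-0.21). Rps16 changed by -0.50 between day 10 (0.31) and day 30 (-0.19), and Rps27 by -0.37 between day 30 (0.18) and day 60 (-0.19). For these 4 genes the changes between the times were called under all 3 scalings, but the sign against the reference cells differed between scalings at 1 of the times.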

How the results depend on the processing

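Scaling moved the counts of called members most, and why was not tested. With arrays scaled by their median, 0 members were called higher and 56 lower in beta than in acinar cells, and Rpl36al (-0.80) and Rps2 (-1.19) turned negative. Against acinar cells 2 members were called higher at each of day 30, day 60 and 7 months, with Rpl10 (-1.07) negative at day 30 and Rpl27 at day 60 (-0.45) and 7 months (-0.38). Against beta cells 56 were called higher and 0 lower at day 10, 54 and 1 at day 30, 33 and 11 at day 60, and 32 and 9 at 7 months. Rpl36al (0.68 at day 10, 0.19 at day 30) and Rpl5 (0.86 at day 10) turned positive. Between day 10 and day 30, 53 were called lower, and between day 30 and day 60, 1 higher and 45 lower, with Rpl38 at -0.11.

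In the series matrix values, 38 members were called higher and 5 lower at day 10 than in acinar cells, and 31 and 9 at day 30, with Rps3a (0.40 at day 10), Rpl13a (0.21), Rpl19 (0.26) and Rpl30 (0.45 at day 30) positive. Against beta cells 50 were called higher and 1 lower at day 10 and 45 and 2 at day 30, while 10 were higher at day 60 and 8 at 7 months, with Rpl5 (0.075 at day 10) positive. Between day 30 and day 60, 0 were called higher and 51 lower, and Rpl23 (-0.079), Rpl38 (-0.19) and Rps27l (-0.0087) turned negative. Between day 10 and day 30, 2 were called higher (Rpl27a and Rps15a). That count was 1 (Rpl4) with no filter on dim genes and with a filter on the negative controls, and 1 (Rps24) with late arrays paired by number.

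With the replicate number as a block for all groups, 29 members were called higher and 13 lower at day 10 than in beta cells, and 9 higher and 18 lower at day 60 than at day 30, and the block moved no count by over 1.5 times. With only the late arrays paired by number, the last counts were 10 and 23. Leaving out single arrays moved no count of called members by over 1.5 times. Other settings (no background correction, stricter or no filter on dim genes, all day 60 or all 7-month arrays left out) moved none by over 1.5 times except the count of members higher at day 30 than at day 10, given above. Signal over background limits 5 members, which were too dim to test.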
